A study of Homo sapiens with 8 samples.

Results

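The RNA bound by Argonaute 2 (Ago2) in miR-155 sponge cells was compared with the total RNA of the same cells. The cells are KM-H2, a Hodgkin lymphoma cell line grown in RPMI medium with serum. They had been transduced with the retroviral vector pMSCV-PIG carrying a miR-155 sponge (miR-155-sp) and had been sorted for the GFP of the vector. The sponge transcript holds binding sites meant to capture miR-155, and how much it captured was not measured on these arrays. Of the 8 labelled samples of the series, 4 belong here, namely total RNA (T) and RNA recovered with an Ago2 antibody (Ago2-IP), each labelled in Cy3 and, separately, in Cy5. The other 4 come from KM-H2 cells with the empty pMSCV-PIG vector (EV), also GFP sorted, and serve here only as the control for the sponge. The 2 labellings of an RNA are technical, so each group is 1 RNA sample, no difference below has a replicate check, and no test was made. The spread given is that between the dye orientations, IP in Cy5 against T in Cy3 and IP in Cy3 against T in Cy5. A pull-down with a control antibody was not analysed here, nor was the sponge transcript itself. The measurement unit is log2 IP/T, the deposited log2 signal of the IP minus that of the total RNA, averaged over both orientations. A value of 1 is a doubling in the IP, and "bound" below means no more than this enrichment.

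Ago2 is the protein core of the RNA-induced silencing complex. It carries a miRNA and uses the seed, bases 2 to 8 from the 5' end, to pair with mRNAs, usually in their 3' untranslated region, which lowers their translation and stability. A sponge offers many sites for the seed of a single miRNA family. MiR-155 is made from MIR155HG and is abundant in activated B cells and Hodgkin cells, where the miR-17-92 cluster, let-7, miR-15/16 and miR-21 are also known as miRNAs of lymphoid cells. Levels of these miRNAs were not measured on the arrays.

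The sequences of these miRNAs are shown because the target lists below are sorted by them. They are mature human sequences of RefSeq (GRCh38.p14), with the seed in capitals. MiR-17-5p and miR-20a-5p share a seed, as do let-7a-5p with let-7i-5p and miR-15a-5p with miR-16-5p, and none of them shares the seed of miR-155-5p.
hsa-miR-155-5p, chr21:25573983-25574006, plus strand: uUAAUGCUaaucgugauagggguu
hsa-miR-17-5p, chr13:91350618-91350640, plus strand: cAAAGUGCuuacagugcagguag
hsa-miR-20a-5p, chr13:91351072-91351094, plus strand: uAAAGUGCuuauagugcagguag
hsa-miR-19b-3p, chr13:91351245-91351267, plus strand: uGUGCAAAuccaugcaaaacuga
hsa-miR-92a-3p, chr13:91351361-91351382, plus strand: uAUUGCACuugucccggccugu
hsa-let-7a-5p, chr11:122146568-122146589, minus strand: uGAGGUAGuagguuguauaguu
hsa-let-7i-5p, chr12:62603691-62603712, plus strand: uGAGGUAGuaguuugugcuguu
hsa-miR-15a-5p, chr13:50049167-50049188, minus strand: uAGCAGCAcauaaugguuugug
hsa-miR-16-5p, chr13:50049027-50049048, minus strand: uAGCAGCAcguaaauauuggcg
hsa-miR-21-5p, chr17:59841273-59841294, plus strand: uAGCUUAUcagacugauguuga

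The deposited values hold 16065 of the 41000 array probes, and 11851 of them were matched to 8757 genes. In all 4 miR-155-sp channels 13533 (84.2%) of the 16065 probes were well above background. Gene spots well above background made up 58.9% (IP) and 61.9% (T) in Cy3 but 38.8% and 38.9% in Cy5. Precision is limited by having 1 RNA sample per group. The cell line was checked against markers in the total RNA. Of 10 Hodgkin cell genes, 9 were well above background in both labellings, including TNFRSF8, which encodes CD30, at a log2 signal of 11.7, while the chemokine CCL22 was so in neither. B cell genes were well above background in both labellings in 2 of 8 cases, and erythroid (0 of 5) and stromal (0 of 4) genes in none, although HBA1 and HBA2, subunits of haemoglobin, and the collagen COL3A1 each had a probe well above background in 1 labelling. In the T and NK cell list 1 of 7 genes, in the epithelial list 2 of 5 and in the myeloid list 2 of 6 were well above background in both labellings. The spike-in control RNAs had a median log2 IP/T of 1.55 in miR-155-sp cells and 0.13 in EV cells before quantile normalization. By orientation their medians were 2.11 and 1.98 in miR-155-sp cells and 0.58 and 0.32 in EV cells, above the first values. IP/T thus ranks a probe against the others and does not measure amounts of bound RNA.

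The median log2 IP/T of all deposited probes in miR-155-sp cells was -0.26, and its quartiles were -0.74 and 0.48. Values ran from -3.10 to 6.18, so enrichment reached further than depletion. An IP/T of at least 2 was found for 2564 probes (16.0%), of at least 4 for 1085 and of at least 8 for 422. An IP/T of at most 0.5 was found for 2255 probes (14.0%), but of at most 0.25 for only 126. Both dye orientations gave an IP/T of at least 2 for 2153 probes and of at most 0.5 for 1321, and the orientations of a probe differed by a median of 0.33 on the log2 scale. Of the 2564 enriched probes, 2560 were well above background in both IP channels but only 1752 in both total channels. Of the 2255 depleted probes, 1626 were so in both IP channels and 2238 in both total channels. The enriched probes were dimmer in total RNA, the denominator of IP/T, than the depleted ones, with a median log2 total signal of 8.26 against 9.78. They were also more often matched to a gene, in 78.7% against 58.0%. In the plot of IP against total signal they form a band that is widest at low total signal.

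**Figure D1:**
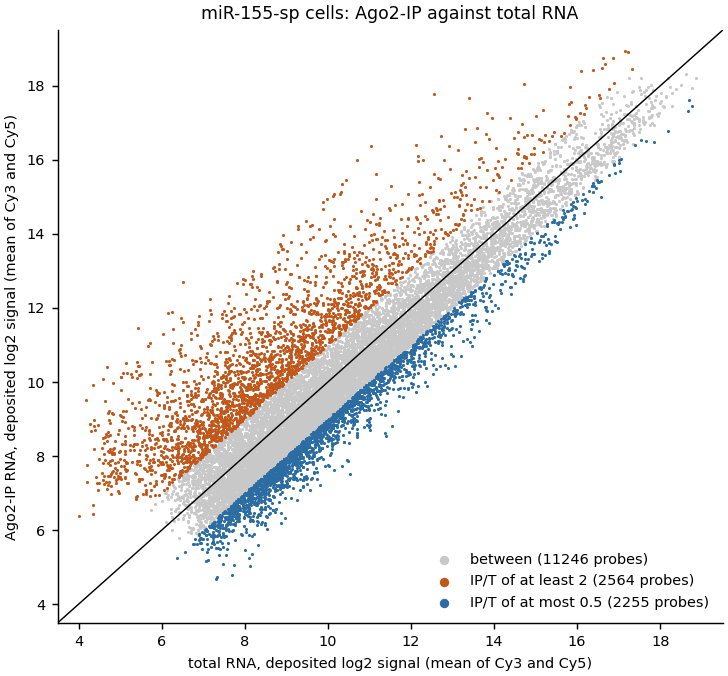
Deposited log2 signal of the Ago2-IP (vertical) against total RNA (horizontal) in miR-155-sp cells, each the mean of Cy3 and Cy5, for 16065 probes; the line marks equal signals. The 2564 probes with an IP/T of at least 2 are orange and the 2255 with at most 0.5 are blue.

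Transcripts were sorted into 63 classes by gene symbol, gene family or known miRNA. Of the 61 classes with at least 5 deposited genes, 18 were called bound, with a median log2 IP/T at least 0.5 above that of all probes in both orientations. By the same margin 2 were called depleted, and 41 were not called. The classes were chosen with earlier results of these data known, so these counts describe the chosen classes and test nothing. With normexp background correction and loess, 8 of the 18 were called bound, namely the BTG and TOB, immediate early and polycomb genes and the ST486, let-7, miR-15/16, miR-17-92 and miR-21 target lists described below. The bound classes were the 6 miRNA target lists, 6 classes of gene regulators (BTG and TOB, immediate early, miRNA pathway, polycomb, SMAD and zinc finger genes), 3 of signalling (DUSP, BCL2 family and cytokine genes), and the cyclin and CDK, RING finger and RAB genes. The genes of the ribosome, mitochondria, proteasome and antigen presentation lay at or slightly below the median of all probes.

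**Figure D2:**
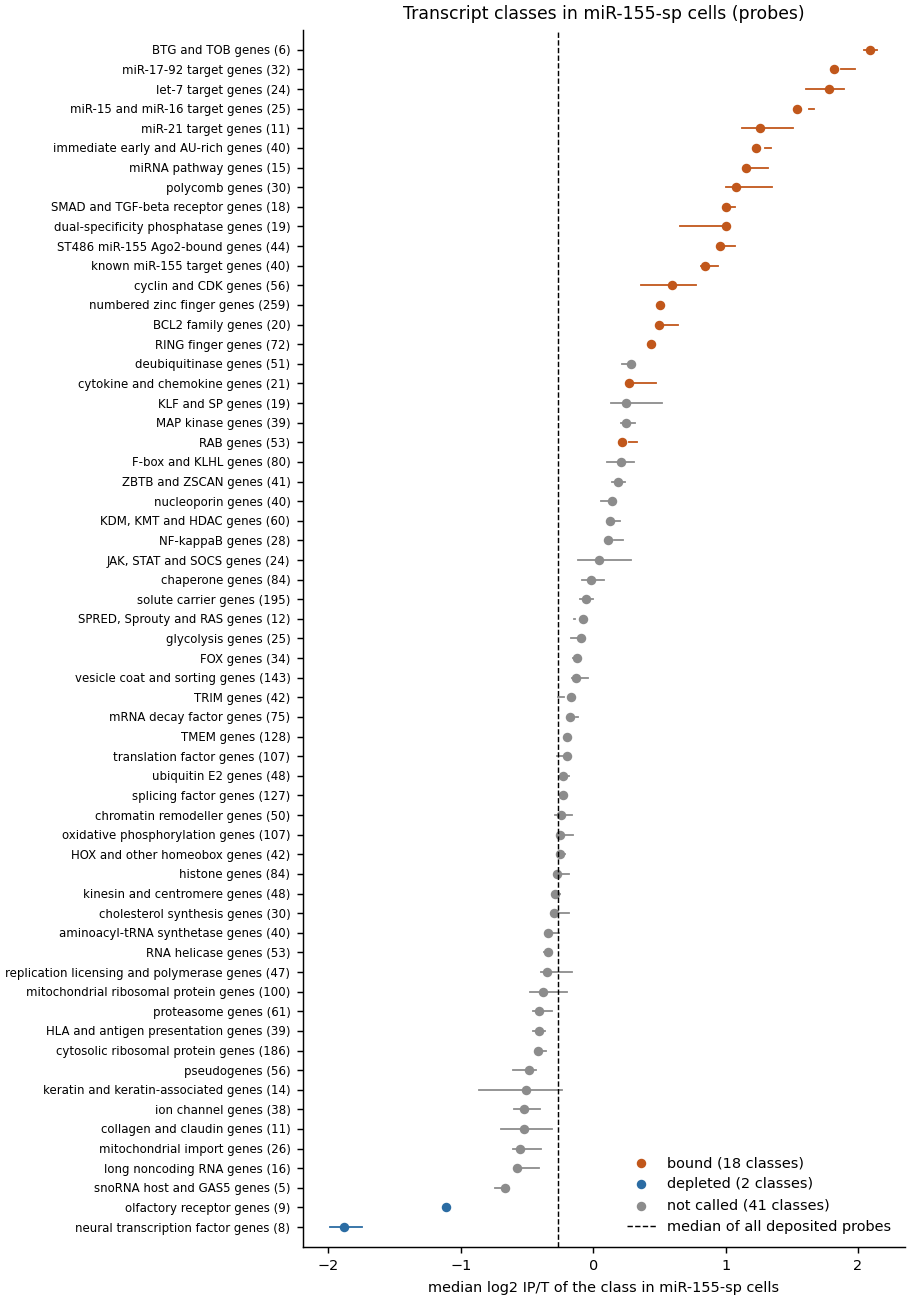
Median log2 IP/T of each class in miR-155-sp cells (points), with a line joining the medians of the 2 dye orientations and the number of deposited probes in brackets. The 18 bound classes (orange) reach from 0.22 (RAB genes) to 2.09 (BTG and TOB genes), the 2 depleted classes (blue) lie at -1.11 and -1.88, and the dashed line marks all deposited probes at -0.26.

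Target genes of miRNAs other than miR-155 were among the most enriched classes in the sponge cells. Known targets of the miR-17-92 cluster had a median log2 IP/T of 1.82 (1.98 and 1.87 by orientation), with 23 of 32 probes at an IP/T of at least 2 and 1 at most 0.5. Known let-7 targets had a median of 1.78 with 17 of 24 probes enriched, miR-15/16 targets 1.54 with 15 of 25, and miR-21 targets 1.26 with 7 of 11. None of these 3 lists held a depleted probe. Known miR-155 targets had a median of 0.84, with 18 of 40 probes enriched and 3 depleted. The miR-155 list was also not called bound with all array probes. For probes well above background in all 4 channels the medians were 1.81 (miR-17-92), 1.39 (let-7), 1.55 (miR-15/16), 1.26 (miR-21) and 0.57 (miR-155). The shares enriched ran from 71.9% for miR-17-92 to 45.0% for miR-155, against 16.0% of all probes. Some genes stand on several of these lists. Over the genes of 1 list alone, the medians were 1.73 for miR-17-92 (20 genes), 1.24 for let-7 (12), 0.79 for miR-15/16 (12), 0.83 for miR-21 (4) and 0.38 for miR-155 (26).

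Among miR-17-92 targets BTG2, an antiproliferative protein that recruits a deadenylase, was highest. Its log2 signals were 17.66 (Cy3) and 17.87 (Cy5) in the IP and 12.20 and 12.89 in total RNA. The proapoptotic BCL2L11 (BIM) had 12.52 and 12.62 in the IP and 9.03 and 9.13 in total RNA, an IP/T of 11.2, equal to its 11.2 in EV cells. ZBTB4, a transcriptional repressor, had a log2 IP/T of 4.23, and the ubiquitin ligase subunit FBXW7 had 3.53 and 2.69 on its 2 probes. For these genes the IP and total labellings did not overlap, but at such ratios this follows from the 2-fold filter on agreement between labellings. The cell cycle factor E2F2 was the only depleted member, with 7.11 and 7.35 in the IP and 8.51 and 9.16 in total RNA, an IP/T of 0.329.

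Among let-7 targets the highest value was that of DICER1, the nuclease that cuts miRNA precursors. One DICER1 probe had 12.56 and 12.83 in the IP and 8.71 and 9.35 in total RNA. The other had 11.87 and 11.94 against 6.70 and 5.79, but was well above background in 3 of the 4 channels. The IP/T of these probes was 12.7 and 50.5 in miR-155-sp cells and 8.09 and 26.0 in EV cells. Against EV cells their total signal differed by -0.45 and -1.20 and their IP signal by 0.20 and -0.24. Most of the difference thus lay in total RNA. For the second probe the orientations gave log2 differences of 0.23 and 1.69. FNDC3A had a log2 IP/T of 4.17, ARID3B, a DNA-binding protein, 3.15, and the RNA-binding oncofetal protein IGF2BP3 3.01. MYC had 13.94 and 13.70 in the IP and 11.18 and 10.96 in total RNA, an IP/T of 6.76. The family is not uniform, since IGF2BP1 had 0.96 and 0.60 and IGF2BP2 had -0.64.

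Of the miR-15/16 targets the ubiquitin ligase SIAH1 was highest at 3.77, although well above background in only 3 channels. It was followed by WEE1, the kinase that holds CDK1 inactive, at 3.70, the transcription factor MYB at 3.21 and cyclin E1 (CCNE1) at 3.02. MYB was bright in every labelling, with 16.05 and 15.94 in the IP against 12.77 and 12.80 in total RNA. BCL2, the survival factor that is a well-known target of these miRNAs, reached only 0.66, and FGFR1 was lowest at 0.08 and -0.56. Of the miR-21 targets, RECK, an inhibitor of matrix proteases, had 2.63 and the translation inhibitor PDCD4 had 1.26. TIAM1 was lowest at 0.07, with orientations of 0.55 and -0.42.

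Several known miR-155 targets stayed enriched although the sponge was present. The study that made these data proposes that the sponge did not capture all of the abundant miR-155 in these cells. The transcription repressor BACH1 had 12.66 and 12.72 in the IP and 7.60 and 8.02 in total RNA, an IP/T of 29.4 (34.7 and 24.9 by orientation) against 33.1 in EV cells. SOCS1, the inhibitor of JAK kinases, had an IP/T of 19.6 and 10.6 on its 2 probes, with 19.2 and 9.26 in EV cells. HBP1 had a log2 IP/T of 2.99, TAB2, an adaptor of NF-kappaB signalling, 2.66 and the Polycomb cofactor JARID2 1.90 (2.70 in EV cells). BACH1, SOCS1 and WEE1 thus had the highest values of the list in the sponge cells, and SOCS1 and WEE1 also stand on the list of another miRNA. RICTOR, a subunit of mTOR complex 2, differed most from EV cells among these, with an IP/T of 7.20 against 17.0, but it was well above background in 6 of the 8 channels. The depleted members were CARHSP1 at -1.28 (-0.46 in EV cells), the phosphatase INPP5D (SHIP1) at -1.14 and 1 of 3 probes of the GTPase RHOA at -1.04. Whether single genes of the list are bound through miR-155 or through other miRNAs was not tested.

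**Figure D3:**
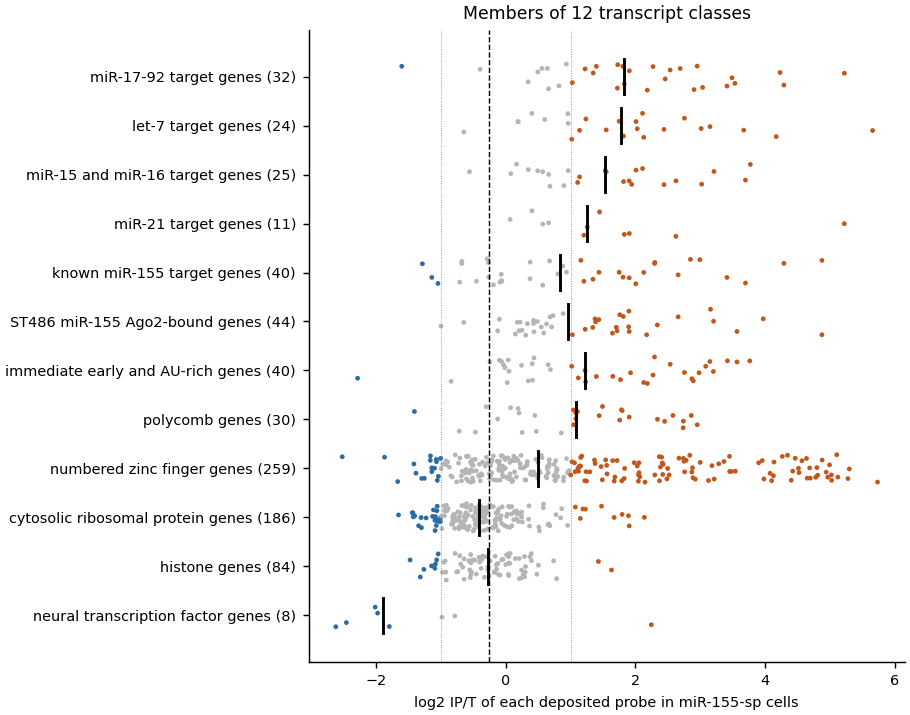
Log2 IP/T in miR-155-sp cells of each deposited probe (points) in 12 classes, with the class median as a black bar, all-probe median as a dashed line and IP/T of 2 and 0.5 as dotted lines; orange points are at least 2 and blue points at most 0.5. The zinc finger genes spread over the widest range, from -2.52 to 5.73, and histone and ribosomal protein genes cluster around the all-probe median.

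Genes of the miRNA pathway itself were enriched, with a median of 1.16 and 8 of 15 probes at an IP/T of at least 2. TNRC6A, the GW182 protein that Argonautes bind to silence mRNAs, had 12.78 and 12.62 in the IP and 8.58 and 8.95 in total RNA, an IP/T of 15.3. TNRC6B had log2 IP/T values of 2.47, 1.23 and 0.90, and the nuclear processing enzyme DROSHA had 1.89. Of the Argonaute mRNAs, AGO4 was at 1.75, and AGO1 (0.96 and 0.79), AGO2 (0.70) and AGO3 (0.60) were below 2-fold. The AGO4 probe, the AGO1 probe at 0.79 and the TNRC6B probe at 2.47 were well above background in only 3 of the 4 channels. AGO2 had 11.09 and 10.72 in the IP and 10.47 and 9.93 in total RNA. The exporter XPO5 (-0.05) and the Dicer partner PRKRA (-0.72) were not enriched.

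The BTG and TOB genes, antiproliferative proteins that bring the CCR4-NOT deadenylase to mRNAs, had the highest class median, 2.09, with 5 of 6 probes enriched. BTG2 (5.22), TOB2 (2.58 and 1.83), BTG3 (2.35) and TOB1 (1.31) were past 2-fold, and BTG1 was at 0.07. The other mRNA decay factors were not called, with a median of -0.18 and 12 of 75 probes enriched. Immediate early genes with AU-rich mRNAs had a median of 1.23, with 23 of 40 probes enriched and 1 depleted. ZFP36, which itself binds AU-rich elements, had an IP/T of 11.8, from 13.47 and 13.34 in the IP and 9.86 and 9.81 in total RNA. DUSP2, a phosphatase of MAP kinases, had 13.6 and 8.87 on its probes, and FOSL1 of the AP-1 family had a log2 IP/T of 3.42 and 2.98. JUN was not enriched at 0.05, and for IER5 one probe gave -2.28 and the other 0.44.

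Polycomb genes, which encode the subunits of chromatin repressors, had a median of 1.08, with 18 of 30 probes enriched. EZH1, a histone methyltransferase, had 11.80 and 11.70 in the IP and 8.75 and 8.84 in total RNA. CBX7 had log2 IP/T values of 2.86 and 2.74 and MTF2 had 2.74, whereas the core subunits RBBP4 (-0.12) and RBBP7 (-0.30) were not enriched and RING1 was depleted at -1.41. Other chromatin families were not called, among them the KDM, KMT and HDAC genes at 0.13 and the chromatin remodeller genes at -0.25. SMAD and TGF-beta receptor genes had a median of 1.01 with 9 of 18 probes enriched, led by the receptors ACVR1B at 3.10 and TGFBR3 at 2.55. The probes of both were well above background in only 3 of the 4 channels, so their ratios are uncertain. Another probe of ACVR1B had -0.22. Cyclin and CDK genes had a median of 0.60 with 20 of 56 probes enriched. For their probes well above background in all 4 channels the median was 0.39. CCNJ had an IP/T of 22.9, and the CDK inhibitor CDKN1B (p27) had 16.3 and 8.67. CDK4 was at -0.48 and CDK2 at -0.63 on the log2 scale.

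Signalling classes were mixed. DUSP genes had a median of 1.00, which was 0.59 for the probes well above background in all 4 channels. BCL2 family genes had a median of 0.49 with members on both sides. The proapoptotic BCL2L11 and PMAIP1 (2.47) and the antiapoptotic MCL1 (1.65 to 2.19 on 3 probes) were enriched. BAX, the pore-forming member, was depleted on both probes, with an IP/T of 0.403 and 0.281. For BBC3 (PUMA) the probes gave 1.59, 1.07 and 0.322. Cytokine and chemokine genes had a median of 0.27, with TNFSF10 (TRAIL) at 2.83, TNF at 1.96 and 1.36 and IL6 at 1.44, while TNFSF14 was at -1.50. RAB genes (0.22) and RING finger genes (0.44) were also called bound. Under 15 alternative settings the RAB and cytokine calls were kept in 7 each, and the RING finger median was 0.02 for probes well above background in all 4 channels.

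The numbered zinc finger genes (ZNF), mostly DNA-binding repressors of the C2H2 type, formed the largest bound class. Their median was 0.50, with 101 of 259 probes (39.0%) enriched and 17 depleted. For the probes well above background in all 4 channels the median was 0.18, which is below the margin for a bound class. Many of these genes lie in clusters of close relatives, so they were also sorted by their neighbours in the genome, which was chosen after their values were seen. The 72 genes with 3 or 4 ZNF genes among the 2 genes on each side had a median of 1.23 (1.18 and 1.30 by orientation), and 39 of them (54.2%) were enriched. The 80 genes with no ZNF neighbour had a median of 0.13 with 21 enriched, and the 58 genes with 1 or 2 had 0.05 with 11 enriched. The clustered genes were also dimmer, with a median log2 total signal of 7.94 against 9.07 for those with no ZNF neighbour. Of all genes in the lowest of 5 bins of total signal, 37.4% were enriched, against 6.96% in the highest. In bins of IP signal the order was reversed, with 6.96% in the lowest and 23.2% in the highest. Both signals are parts of IP/T, so such bins are tied to the ratio itself. The part of signal in the difference was not tested. Near-identical relatives may share the signal of a probe, so values of single clustered ZNF genes are uncertain.

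Where all 4 channels were well above background and both orientations past 2-fold, 7 of the 12 genes with the highest IP/T were ZNF genes. ZNF254 led, with 15.85 and 16.14 in the IP and 10.62 and 10.77 in total RNA, an IP/T of 39.4 (46.4 and 34.2 by orientation). ZNF680, ZNF92, ZNF430, ZNF429, ZNF100 and ZNF681 lay between 32.6 and 29.5. The other 5 were BTG2 at 37.3, the atypical kinase MAPK6 (ERK3) at 30.3, FAM222B at 30.2, the apoptosis inhibitor BIRC3 at 29.8 and BACH1 at 29.4. MAPK6 had 14.03 and 14.39 in the IP and 9.27 and 9.31 in total RNA, and BIRC3 had 13.66 and 13.82 against 8.73 and 8.95. In EV cells the IP/T of MAPK6 was 23.7 and that of BIRC3 25.3, so all 12 genes were enriched in both cell populations. Probes well above background in only 3 channels are not ranked here, such as those of SOCS5 (40.2 and 33.7), SNX16 (41.9) and CLDN12 (45.4), since 1 of their total channels was not well above background and their ratios are uncertain.

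At the other end, the 12 lowest genes had an IP/T between 0.137 and 0.204. ENSA, a regulator of the phosphatase PP2A, was lowest, with 8.78 and 8.29 in the IP and 11.65 and 11.16 in total RNA. The ubiquitin ligase TRIM35 (0.162), the deubiquitinase OTUD7A (0.165) and the splicing factor PRPF19 (0.169) followed, with the neurogenins NEUROG3 (0.163) and NEUROG1 (0.182). ZNF575 (0.174) and ZSCAN10 (0.197) were depleted members of the zinc finger families. The transcription factor DEAF1 (0.191), the receptors NPBWR1 (0.176) and LGR4 (0.201) and the creatine kinase CKB (0.204) completed the list. In these genes both total labellings exceeded both IP labellings, as the rule that chose them requires.

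**Figure D4:**
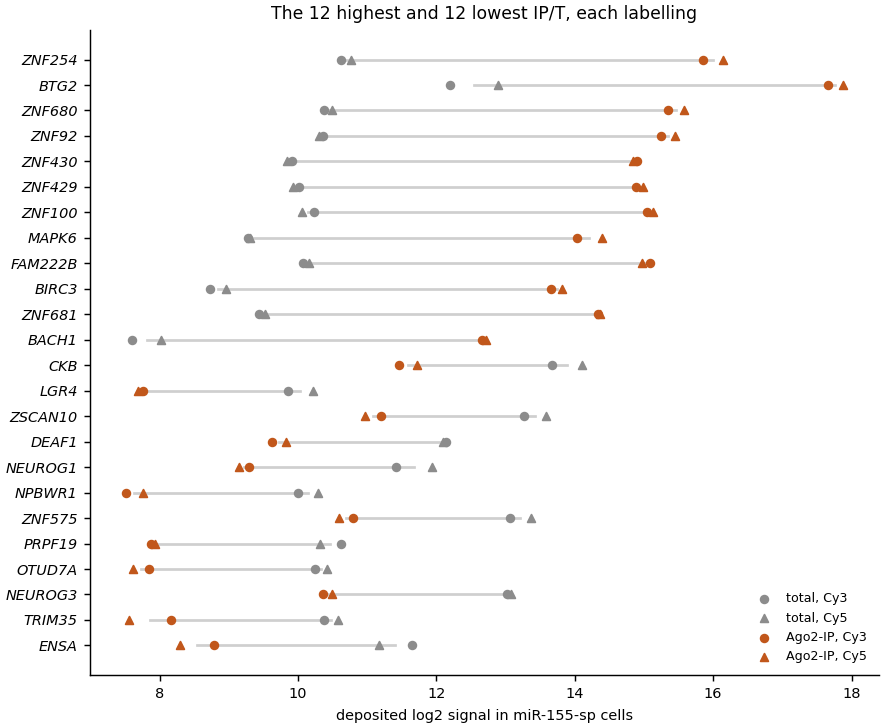
Deposited log2 signals of the 4 labellings in miR-155-sp cells for the 12 most enriched and the 12 most depleted genes; orange is Ago2-IP, grey is total RNA, circles are Cy3 and triangles Cy5. IP and total labellings do not overlap in any of the 24 genes, by the rule that chose them, and the gaps are wider for the enriched genes (IP/T of 29.4 to 39.4) than for the depleted ones (0.137 to 0.204).

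The abundant housekeeping transcripts were neither bound nor depleted as classes. Cytosolic ribosomal protein genes had a median of -0.41, with 10 of 186 probes enriched and 23 depleted. Within them RPLP0, the stalk protein of the large subunit, was enriched on all 3 probes, with an IP/T of 4.41, 3.74 and 3.47. RPS27 had 3.72 and 3.19. RPL21 was depleted on 6 of its 10 probes, and its lowest probe had 12.51 and 12.47 in the IP and 14.02 and 14.27 in total RNA. RPLP0 and RPS27 lay at the upper end of the signal range, with IP signals between 18.52 and 19.00, the latter being the highest value that normalization allowed. Ribosomal protein genes have many processed pseudogenes, so their probes may share signal with copies.

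Mitochondrial ribosomal protein genes (-0.38), proteasome genes (-0.41), oxidative phosphorylation genes (-0.25), splicing factor genes (-0.23) and glycolysis genes (-0.09) were likewise close to the median of all probes. Single members departed from their class, such as MRPL20 with an IP/T of 6.82 and 6.45 on its 2 probes. Of 39 probes for HLA and antigen presentation genes none was enriched and 3 (7.69%) were depleted, against 16.0% and 14.0% of all probes. Of the 26 probes for mitochondrial import genes none was enriched, and the 4 depleted ones (15.4%) were near the share of all probes. Long noncoding RNA genes had a median of -0.57 with 3 of 16 probes enriched. H19, an imprinted RNA, had 9.16 and 9.37 in the IP and 5.91 and 6.45 in total RNA, but was well above background in 3 of the 4 miR-155-sp channels. The nuclear RNA MALAT1 was at 0.17, with orientations of -0.10 and 0.45. Hosts of snoRNAs were mostly below the median, with GAS5 at -0.49 and SNHG5 at -0.83, and SNHG1 was apart at 1.08. MIR155HG, which gives rise to miR-155, was at -1.03.

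The 2 depleted classes were among 5 whose genes belong to other lineages, and the keratin (-0.51), ion channel (-0.52) and collagen and claudin genes (-0.52) were not called. Olfactory receptor genes had a median of -1.11, with 6 of 9 deposited probes at an IP/T of at most 0.5 and OR5V1 enriched at 1.44. Neural transcription factor genes had a median of -1.88 with 5 of 8 probes depleted. NEUROG3, a factor of endocrine and neural progenitors, had 10.36 and 10.50 in the IP and 13.02 and 13.07 in total RNA. SOX1, a factor of neural progenitors, had 11.36 and 11.50 against 13.43 and 13.46. NEUROG2 was the exception at 2.25. These classes were small in the deposited values, with 8 genes each of 114 and 25 on the array. Olfactory receptors had a median log2 total signal of 9.08, below the 9.72 of all probes, while neural transcription factors had 12.7, above it. Whether these probes measured the named genes in this cell line was not tested, and over all array probes neither class stood below the median. The olfactory receptor call was also lost with both normexp settings.

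Some transcripts were well above background in both labellings of one fraction and in neither of the other. Of the 40981 usable array probes, 73 were detected in this way in the IP alone and 8 in total RNA alone. Only 13 of the 73 and 0 of the 8 were among the deposited probes. The probes named below were all outside the deposited values used elsewhere. When detection was taken as a signal over 2 times its error, the numbers were 102 and 112, so the excess in the IP depends on how detection is defined. The brightest of the IP was CD69, an early activation antigen of lymphocytes, at 11.00 and 10.94, which was at least 51.3-fold higher in the IP than in total RNA. The bound sets the dim group at the lowest signal among probes well above background, or at the probe's own where that was higher. ZNF680 was at least 33.6-fold higher, CFL2, an actin-severing protein, at least 27.2-fold, and CPEB2, a regulator of cytoplasmic polyadenylation, at least 25.6-fold and 24.0-fold on its 2 probes. In total RNA alone, ADAD2 was at least 2.56-fold higher, and PSTPIP1, PLVAP, CDC42EP1 and FOSB were at least 1.57, 1.55, 1.32 and 1.25-fold higher.

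Longer genes were more often enriched. With 1 value a gene, the median log2 IP/T in 5 equal bins of gene length, introns included, was -0.41, -0.31, -0.25, -0.07 and 0.01 from the shortest to the longest. The share with an IP/T of at least 2 was 10.2% in the bin of the shortest genes, which reached up to 8578 bases, and 24.7% in the bin of the longest, which began at 78709. Spearman's rho over the 8757 genes, which are not independent replicates, was 0.17 for gene length and 0.01 for the GC content of the promoter (7271 genes). This feature was chosen after the files were seen. Of the 2442 genes with several deposited probes, 302 (12.4%) had probes at least 2-fold apart in IP/T, and 6 had probes past 2-fold in both directions.

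The same ratios were then set against those of the empty vector. The median absolute difference in log2 IP/T between miR-155-sp and EV cells was 0.16 over all probes (0.20 and 0.19 within single orientations), and 51 of 61 classes moved by at most 0.1. An IP/T at least 2-fold higher in miR-155-sp cells was found for 61 probes (0.380%), and at least 2-fold lower for 35 (0.218%). All 8 channels were well above background for 10 and 3 of these. The other target lists differed by 0.04 (miR-17-92), 0.12 (let-7), 0.00 (miR-15/16) and 0.20 (miR-21) on the log2 scale, and known miR-155 targets by -0.05. These counts moved with the labelling. With normexp, followed by loess or by quantile normalization, 1 probe was higher and 0 were lower. With the Cy5 labellings alone 388 probes were higher and 321 lower, and with the Cy3 labellings alone 43 and 7. Of the miR-155 targets, 15 of 40 probes were lower in both orientations and 10 higher. The list of miR-155 targets found by Ago2 pull-down in ST486, a Burkitt lymphoma line, was lower by 0.28 in each orientation, and 32 of its 44 probes were lower in both against 30.4% of all probes. That list remained bound at a median of 0.96, with 22 of 44 probes enriched. The list was chosen in another cell line by the study that made these data. That study also reported a mild fall of its enrichment in KM-H2 cells with the sponge. The shift here is therefore not an independent finding.

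**Figure D5:**
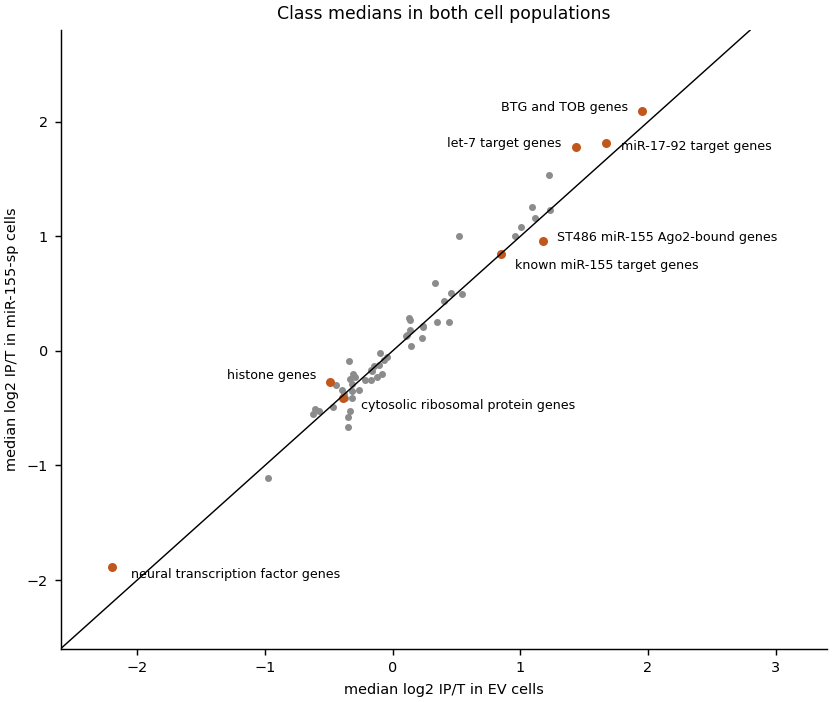
Median log2 IP/T of the 61 classes in miR-155-sp cells (vertical) against EV cells (horizontal), with the line of equal values and 8 classes named. The points follow the line, and 51 of 61 classes moved by at most 0.1 as the median of their probes' differences.

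Besides the ST486 list, 2 classes shifted by at least 0.2 in both orientations, a limit chosen after the values were seen. With both normexp settings no class reached this limit in both orientations. There the differences were 0.19 and 0.21 for histone genes, 0.25 and 0.24 for neural transcription factor genes and -0.21 and -0.21 for the ST486 list. Histone genes were higher by 0.26 (0.20 and 0.31), with 63 of 84 probes (75.0%) higher in both orientations against 31.1% of all probes. Their median went from -0.49 in EV cells to -0.27 in miR-155-sp cells, so as a class they were depleted in neither by the margin used. Their IP signal was higher by 0.41 and their total signal by 0.11. H2AC21, a core histone gene, had an IP/T of 0.360 against 0.249 in EV cells on one probe and 0.641 against 0.465 on the other. The enriched histone gene H3-3B, whose mRNA is polyadenylated, was almost equal at 3.10 against 2.90. Histone genes are near-identical copies, so probes may share signal. Neural transcription factors were higher by 0.38 (0.32 and 0.46), from -2.19 to -1.88, where the IP signal differed by 0.10 and the total signal by -0.24.

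Single genes that differed most from EV cells had low to moderate signals. With all 8 channels well above background, the largest difference was that of AEBP2, a Polycomb cofactor. Its signals were 10.29 and 10.94 in the IP and 8.77 and 8.87 in total RNA, an IP/T of 3.47 against 1.45 in EV cells. The IP part of this difference was 0.45 and the total part -0.82 on the log2 scale. Its log2 difference of 1.26 was 0.89 and 0.99 with the normexp settings. XIAP, a caspase inhibitor, had an IP/T of 10.2 against 4.68, TOPBP1, a DNA damage adaptor, 2.15 against 1.00 and RFX7, a transcription factor, 5.81 against 2.79. For XIAP, TOPBP1, RFX7 and the splicing regulator PTBP3 the total signal differed by -0.66, -0.63, -0.68 and -0.74, so most of the difference lay in total RNA. For the chromatin remodeller CHD3 (0.729 against 0.341), PCDHA8 (0.805 against 0.379) and NEUROD2 (0.581 against 0.305) the larger part lay in the IP, by 1.06, 0.91 and 0.69.

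Genes less enriched with the sponge were led by OOEP, a protein of the egg and early embryo, with 0.995 against 2.34. Its log2 difference of -1.23 was -0.49 and -0.75 with the normexp settings. NUDT3, a nucleotide hydrolase, had 0.353 against 0.734, the ubiquitin ligase subunit FEM1A 0.601 against 1.20 and RBBP6 1.04 against 2.04. TBCCD1, ZNF174, TRIM32 and CCDC32 followed with differences between -0.95 and -0.90. In OOEP (0.51), NUDT3 (0.47), FEM1A (0.64), RBBP6 (0.62), TBCCD1 (0.49) and ZNF174 (0.55) the total signal was higher in miR-155-sp cells. In TRIM32 and CCDC32 it was higher by no more than 0.12, and the IP signal differed by -0.79 and -0.80. All signals of these 8 genes in miR-155-sp cells lay between 7.01 and 10.33, and the orientations of CCDC32 gave differences of -1.47 and -0.33.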

How the data were processed

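The deposited scanner files hold spot intensity from Agilent Feature Extraction (10.5.1.1 per the labels, 10.7.3.1 per the file headers), which subtracts background and normalizes dyes. The authors also deposited log2 values, which per the study's methods were quantile-normalized and filtered on detection and on agreement between labellings within 2-fold. Quantile normalization hides any overall difference between fractions, and the filter on agreement removes the noisiest probes. The deposited log2 values differed from values recomputed from the scanner files by a median of 0.00056. Samples were grouped by the labels. Both labellings of an RNA were averaged as 1 sample and log2 IP/T was taken per probe, so no test, SD or p-value was computed.

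Probes were named by their accession in a RefSeq gene table of GRCh38.p14 (23958 of the array's probes matched). The arrays were designed on another build, so no gene coordinates are given, and other probes keep their probe name. Classes were defined by symbol patterns and lists, and a class needed 5 deposited genes. The patterns for cytokine and chaperone genes were corrected after the files were seen. The genes, classes and lists were chosen with earlier results of these data known. The genes named were the 12 highest and 12 lowest by IP/T where all 4 miR-155-sp channels were well above background and both orientations past 2-fold (1 probe a gene), the highest and lowest gene of each class and all members of classes of at most 15 genes, a fixed set (AGO2, MIR155HG, JARID2, and the genes TBRG1, DET1, HOMEZ, TRIM32 and PSIP1), the 8 largest rises and falls against EV cells with all 8 channels well above background, and the 5 brightest probes of 1 fraction. Of the fixed set, TBRG1, DET1, HOMEZ and PSIP1 have no value given above. Genes outside these rules were chosen as members after their values were seen. Differences against EV cells needed the same direction in both orientations. A protein length and a zinc finger count per gene were not run, and gene length and promoter GC content were used in their place. Alternatives included normexp (offset 50; limma 3.58.1 in R 4.3.3) with loess or quantile normalization, all array probes, other filters, single labellings and orientations, and 1 value a gene. The other steps used Python 3.11.15, pandas 2.3.3 and numpy 2.4.6, and the counting code was tested on simulated data.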

Additional observations from a re-analysis of the deposited data

Results flagged for a closer look

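In control spots outside the main measurement, the 10 spike-in RNAs (32 spots each) had a median log2 IP/T of 1.55 in miR-155-sp cells. Single spike-ins lay between 0.86 and 2.37 there, and the median in EV cells was 0.13. The medians by orientation were 2.11 and 1.98 in miR-155-sp cells and 0.58 and 0.32 in EV cells. TBCCD1 had a log2 IP/T of -0.48 in miR-155-sp cells (-0.32 and -0.64 by orientation), an IP/T of 0.716, while in EV cells the IP/T was 1.39, so the directions were opposite in both orientations. This difference was not tested.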

How the results depend on the processing

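Each group is 1 RNA sample, so the lack of replicate samples limits these values, and in every case below the cause was not tested. No paired analysis was possible because each group is 1 sample and no test was made. The 2564 probes enriched at least 2-fold with the sponge became 1382 with normexp and loess, 1417 with normexp and quantile normalization and 4137 with all array probes, and 1455 and 1614 genes with the mean and the highest probe of a gene. The 2255 probes with at most 0.5 became 306, 661, 3953, 955 and 868 in the same order, and 3412 without the filter on agreement. With both normexp settings and all probes, the 18 bound classes became 8, 11 and 11, and the number of depleted classes went from 2 to 1, 1 and 1. With all probes both of the 2 lost their call, so the 1 depleted class there was another. The 3 classes shifted against EV cells became 0, 0 and 1. With all array probes the medians of olfactory receptor genes (0.0404) and neural transcription factor genes (0.00497) came to lie above that of all probes. The 61 probes higher than in EV cells became 134 with the filters rerun on the scanner values and 1 and 1 with normexp. They became 11 with probes well above background in all 4 miR-155-sp channels and 1243 with all probes. With a 1.5-fold limit between labellings they became 34, without the filter 548, and with 1 value a gene 23 and 37. The 35 lower probes became 124, 0 and 0, 4, 1291, 17, 605, and 13 and 14 in the same order. With 1 labelling or 1 dye orientation left out the ranges were 2550 to 2666 enriched and 2261 to 2522 depleted probes, 18 to 21 bound and 2 to 3 depleted classes, 4 shifted classes, and 43 to 388 higher and 7 to 321 lower probes against EV cells. The 73 probes detected in the IP alone became 102 and the 8 in total RNA alone 112 when detection was a signal over 2 errors. Of the 20 called classes, 8 kept their call under every setting with at least 5 genes, namely BTG and TOB, immediate early, polycomb and the ST486, let-7, miR-15/16, miR-17-92 and miR-21 lists. The call of known miR-155 targets was lost with normexp and loess and with all array probes, and that of ZNF and RING finger genes with bright probes alone.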
